A study of Capra hircus with 36 samples.

Results

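The leukocyte miRNAs described here are the mature forms of miR-142, miR-150, miR-155, miR-223, miR-146a, miR-146b and miR-342, measured in 6 goat tissues. They were chosen by name, taking the 5p and the 3p arm of each precursor wherever the arm was listed, and not by their levels. The choice gave 15 of 1391 listed mature miRNAs. It covers 7 precursor names, miR-146b being listed 2 times, once with the prefix "conserve-" that marks a miRNA matched by conservation to another species. The arms of miR-142 were listed only with this prefix and are written here without it, and miR-146a was listed only as its 3p arm. Another 6 entries of the same numbers that were listed as newly predicted miRNAs were left out.

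Small RNA was sequenced from spleen, lung, liver, kidney, heart and longissimus muscle of 6 adult female goats of about 3 years. The high-altitude population was 3 goats labelled Tibetan Goat, living at 3000 m, and the low-altitude population was 3 goats labelled Chuandong White Goat, living at 600 m. Each goat gave all 6 tissues, which made 36 libraries with 3 in each combination of tissue and altitude, and the comparisons ask how miRNAs differ between tissues and between populations. The populations differ in breed as well as in altitude, and the authors also give different places, forms of rearing and body weights. Effects of breed, altitude and these other differences cannot be told apart. Replicate 1 of a population is a different animal from replicate 1 of the other. Library totals ran from 7108635 to 14407748 counts. Values are given as counts or as RPM, the count scaled to a library total of 1000000. At these totals 3 counts, taken as the floor of a library, equal 0.208 to 0.422 RPM.

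As background, miRNAs are short RNAs that lower the output of the mRNAs they pair with, and some are made almost only in blood-forming cells. miR-142 is found in leukocytes of nearly every lineage, miR-150 and miR-342 are abundant in resting lymphocytes, and miR-223 is a miRNA of neutrophils and monocytes. miR-155, miR-146a and miR-146b are induced when immune cells are activated, miR-155 promoting and the miR-146 family restraining the inflammatory signal. Spleen is a lymphoid organ that also holds macrophages and blood, and lung and liver contain many resident and vascular leukocytes.

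The labelled tissues were compared with miRNAs that mark other cell types. The hepatocyte miRNA miR-122 summed to 50657 ± 65303 RPM in liver (SD, n = 6), or 24796 ± 17744 RPM without high-altitude replicate 3 (n = 5), and to at most 81.5 ± 76.0 RPM, in kidney, elsewhere. miRNAs of striated muscle summed to 487827 ± 64663 RPM in muscle and 273745 ± 79334 RPM in heart, against 5304 ± 3319 RPM in liver, the next tissue. Those of ciliated cells summed to 7184 ± 3957 RPM in lung and to no more than 34.1 ± 14.1 RPM elsewhere. The epithelial list was highest in lung, at 8399 ± 2475 RPM, followed by kidney at 3645 ± 2643 RPM, and lowest in heart at 24.2 ± 20.3 RPM. The endothelial miRNA miR-126 was read in all 6 tissues, from 7596 ± 1995 RPM in muscle to 21318 ± 11065 RPM in lung.

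Some libraries stood apart. The spleen library of high-altitude replicate 1 had 7168 RPM of chi-miR-142-5p against 27797 to 54417 RPM in the other 5 spleens. It also had the most miRNAs listed at 0 while another library of its group had at least 100 counts, 31 against a median of 18 over the 36 libraries. Such 0 counts occurred in all libraries, at the least for 6 miRNAs, and touched 176 of the 1391 miRNAs and 3 of the 15 leukocyte miRNAs, among them chi-miR-223-3p. Whether such a 0 stands for a low level or for a failed entry of the quantification could not be told from the counts. RNA quality of the libraries was not among the values used here, so its part in these 0 counts and in the spleen results was not tested. Measured over the more abundant miRNAs against the mean of the 5 libraries that share its tissue, this spleen was 2.16 away on the log2 scale and came after the liver of high-altitude replicate 1 (2.26), the kidney of high-altitude replicate 2 (2.19) and the muscle of low-altitude replicate 3 (2.18).

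Of the 15 leukocyte miRNAs, 7 had counts in all 36 libraries, and 9 averaged at least 10 RPM, as did 308 of all 1391. The 6 others were conserve-chi-miR-146b-5p, conserve-chi-miR-146b-3p, chi-miR-342-5p, chi-miR-150-3p, chi-miR-155-3p and chi-miR-146b-3p, whose averages lay between 0.12 and 1.93 RPM. Together the 15 took 5.86 ± 2.16% of the counts in spleen (SD, n = 6; 6.52 ± 1.60% without high-altitude replicate 1), 2.06 ± 0.306% in lung, 1.68 ± 0.585% in liver, 0.506 ± 0.105% in kidney, 0.432 ± 0.113% in heart and 0.186 ± 0.0519% in muscle. By tissue means, chi-miR-142-5p led this sum in each of the 6 tissues, from 35.1% of it in muscle to 69.2% in liver. Its share was 58.0% in spleen, or 60.3% without high-altitude replicate 1. In muscle, chi-miR-150-5p exceeded chi-miR-142-5p in high-altitude replicate 2 (1360 against 556 RPM) and in low-altitude replicates 2 (445 against 415 RPM) and 3 (729 against 611 RPM). The other muscles had the reverse order, with 1270 RPM of chi-miR-142-5p in high-altitude replicate 3. The mean was highest in spleen for 6 of the 9 more abundant miRNAs and highest in lung for the other 3, chi-miR-146b-5p, chi-miR-223-5p and chi-miR-223-3p, the last only through 1 lung library. Among all 308 miRNAs of at least 10 RPM, 25.6% were highest in spleen. In bulk tissue, fewer cells of a type and less RNA per cell cannot be told apart.

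**Figure D1:**
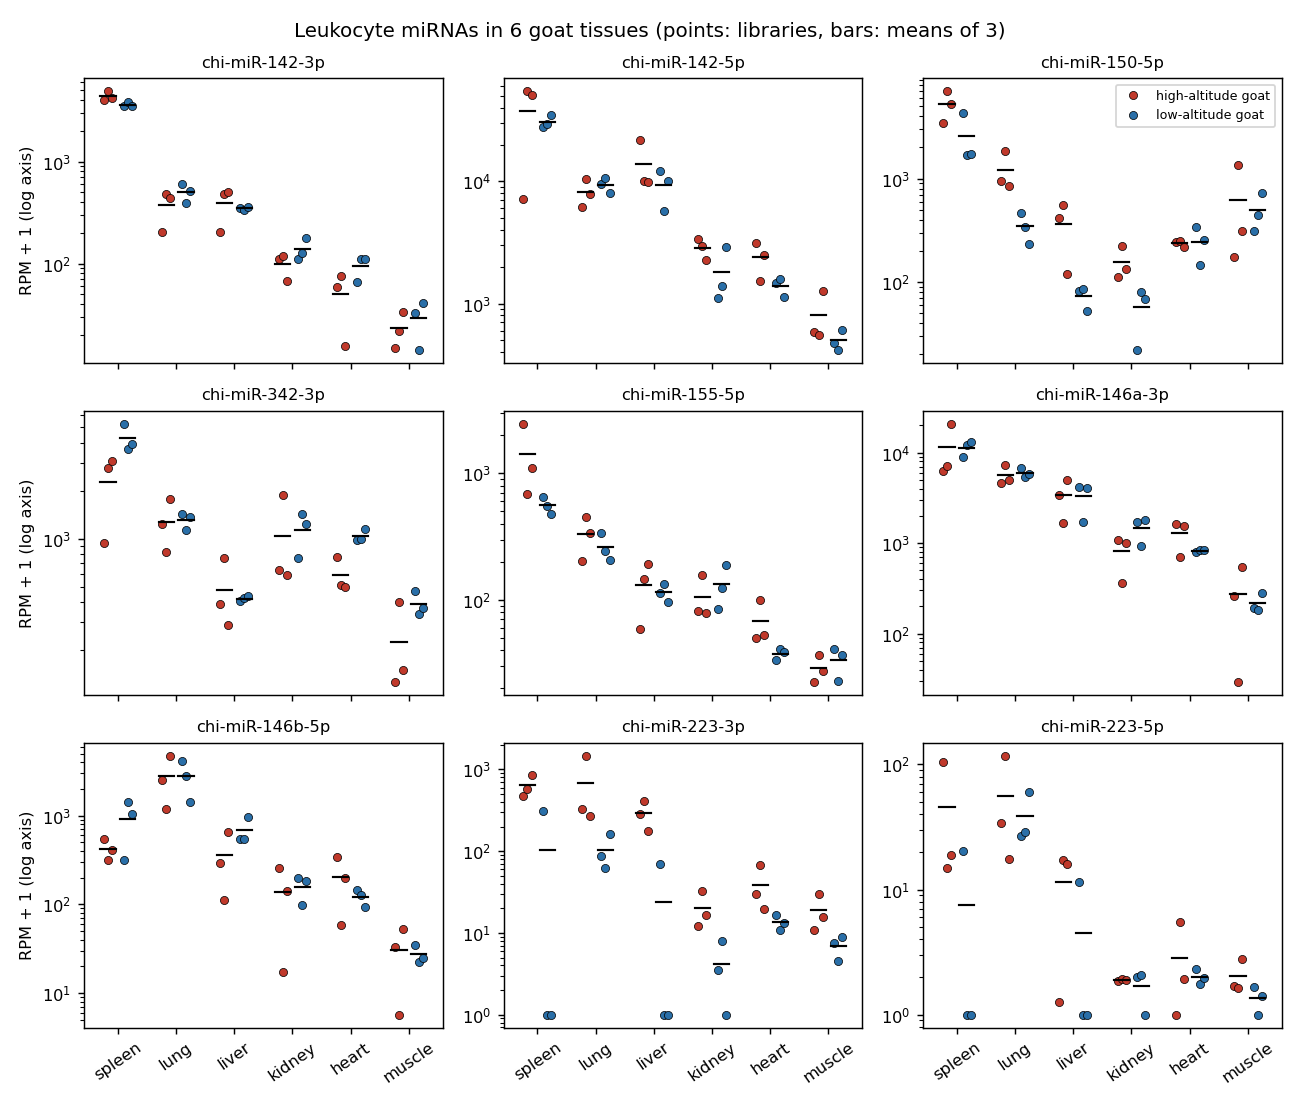
Levels of the 9 leukocyte miRNAs that averaged at least 10 RPM, with RPM plus 1 on a log axis against tissue. Each point is a library (red, high altitude; blue, low altitude) and each bar the mean of 3 goats; chi-miR-142-3p in the 6 spleens, from 3491 to 4883 RPM, lies above all 30 libraries of the other tissues, and 5 low-altitude libraries of chi-miR-223-3p lie at 0.

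Tissues were compared by the edgeR quasi-likelihood test over all 1391 miRNAs, averaging both altitudes, and called where the Benjamini-Hochberg adjusted p was under 0.05 and the log2 fold change 1.5 or more in size. Against the mean of the other 5 tissues, 10 of the 15 leukocyte miRNAs were higher in spleen and 0 lower, while 10.8% of all miRNAs were higher and 4.1% lower. The 10 held 7 of the 9 more abundant miRNAs and 3 of the 6 scarce ones, and both arms of miR-142, miR-150, miR-155 and miR-342 were among them. The shares over all miRNAs, here and in the other contrasts, include many scarce miRNAs and are not matched to the 15 by level. The median log2 fold change was 2.44 for the 15 and -0.31 for all miRNAs. Lung was set against the mean of heart, kidney, liver and muscle, where 9 of the 15 were higher and 0 lower, against 8.77% and 4.24% of all miRNAs, with medians of 1.82 and -0.40. Between the organs themselves, 5 of the 15 were higher in spleen than in lung and 1 was lower, where 4.17% and 3.95% of all miRNAs were. Lower calls in the first pair of contrasts numbered 0 by DESeq2 as well, and 0 of the 15 were lower in them at an unadjusted p under 0.05.

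The size of these differences depends on the scaling. With library totals in place of TMM factors (the scaling of edgeR, from a trimmed mean of log ratios), the median of the 308 more abundant miRNAs moved by 0.46 on the log2 scale in the spleen contrast and by 0.65 in the lung contrast. The share of higher calls among all calls then went from 72.5% to 83.9% and from 67.4% to 85.8%, and was 53.8% and 53.9% by DESeq2. Higher leukocyte miRNAs numbered 12 and 12 with library totals, against 14.2% and 14.38% of all miRNAs, and 11 and 8 by DESeq2, against 7.19% and 7.40%. Since the same goats gave all tissues, the goat was also fitted as a block, which left 8, 8 and 5 calls in the 3 contrasts, and among all miRNAs it left 11.8%, 12.3% and 8.20% called, where 14.9%, 13.01% and 8.12% had been.

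miR-142, the miRNA shared by leukocyte lineages, was the most abundant of the set. chi-miR-142-3p was counted 29511, 46109 and 46762 times in the high-altitude spleens and 36825, 33535 and 31390 times in the low-altitude ones, or 4004 ± 523 RPM (SD, n = 6). In the 6 lungs it ran from 204 to 602 RPM with a median of 458, and in the 6 livers from 201 to 497 RPM with a median of 354. Kidney followed with 118 ± 35.8 RPM, heart with 71.7 ± 35.7 RPM and muscle with 25.2 ± 11.04 RPM. The spleen libraries stood clear of all others, by 9.14-fold over lung in the means, whereas lung and liver overlapped with each other, liver stood clear of kidney, and kidney, heart and muscle overlapped in turn. Spleen held 79.6% of the sum of the 6 tissue means, and the mean of spleen was 159 times that of muscle. The log2 fold change was 4.49 ± 0.24 (SE) for spleen against the other 5 tissues (adjusted p = 9.94e-15, edgeR quasi-likelihood test), 3.20 ± 0.41 for spleen against lung (adjusted p = 1.04e-06) and 1.62 ± 0.27 for lung against the 4 other tissues (adjusted p = 3.53e-05). Only the last of these was lost in part of the leave-one-out fits, where it went below the least fold change, to 1.31 without high-altitude replicate 3 and 1.48 without low-altitude replicate 1.

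chi-miR-142-5p, the other arm of the same precursor, was counted 52420, 513803 and 557517 times in the high-altitude spleens and 291934, 253411 and 311370 times in the low-altitude ones. The first of these libraries was far below the rest, and the mean of spleen was 33971 ± 17185 RPM with it (n = 6) and 39332 ± 12395 RPM without it (n = 5). In the 6 livers the arm ran from 5769 to 21862 RPM with a median of 10065, and in the 6 lungs from 6166 to 10602 RPM with a median of 8698. Liver and lung thus overlapped, with liver the higher in the mean, and both lay above kidney (2331 ± 915 RPM), heart (1889 ± 766 RPM) and muscle (652 ± 311 RPM). In the edgeR test the log2 fold change was 2.92 ± 0.25 for spleen against the other 5 tissues (adjusted p = 3.79e-10, edgeR) and 1.93 ± 0.39 for spleen against lung (adjusted p = 0.00103). For lung against the 4 other tissues, liver among them, it was 1.24 ± 0.28 (adjusted p = 0.0015), below the least fold change. It passed with library totals in place of TMM, at 1.90, and without high-altitude replicate 1, at 1.63.

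The arms of miR-142 were not used in a constant ratio. The 5p arm made up 95.3% of both arms in the median of 36 libraries, and 86.0 ± 10.9% in spleen (SD, n = 6; 90.4 ± 1.76% without high-altitude replicate 1) against 94.5 ± 2.68% in kidney, the next lowest. In the high-altitude spleens the 5p share was 64.0% (95% exact binomial interval 63.7 to 64.3%), 91.8% and 92.3%, and in the low-altitude spleens 88.8%, 88.3% and 90.8%. The spleen library of high-altitude replicate 1 was thus the lowest of all, and the other 5 spleens overlapped with kidney and heart, whose lowest values were 90.9% and 91.1%. Binomial intervals cover counting error only. Across the 36 libraries the log2 levels of both arms had a Pearson r of 0.89, and of -0.07 once the tissue means were removed, so the likeness lay between tissues. These points share tissues, goats and library totals.

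Among the lymphocyte miRNAs, chi-miR-150-5p was counted 25230, 65638 and 57713 times in the high-altitude spleens and 45242, 14684 and 15550 times in the low-altitude ones. In lung the counts were 9112, 19258 and 8550 at high altitude against 4468, 3665 and 2370 at low altitude. The mean was 3895 ± 2054 RPM in spleen and 779 ± 600 RPM in lung (SD, n = 6), with overlapping ranges, and muscle followed at 556 ± 436 RPM, above heart (241 ± 62.4 RPM), liver (218 ± 213 RPM) and kidney (106 ± 68.5 RPM). Each pair of neighbours in this order overlapped. Spleen exceeded the other 5 tissues by a log2 fold change of 3.34 ± 0.22 (adjusted p = 3.12e-12, edgeR) and exceeded lung by 2.54 ± 0.37 (adjusted p = 1.04e-05), while lung against the 4 other tissues gave 0.995 ± 0.26 (adjusted p = 0.00612), below the least fold change. With library totals in place of TMM that value was 1.61 and passed.

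chi-miR-342-3p, whose gene lies within EVL in the RefSeq annotation of the assembly ARS1.2, was counted 6908, 26188 and 33715 times in the high-altitude spleens and 55243, 31757 and 35054 times in the low-altitude ones. Its lowest spleen was again high-altitude replicate 1, and the mean was 3266 ± 1428 RPM in spleen (n = 6), or 3730 ± 966 RPM without that library (n = 5). Lung (1293 ± 317 RPM), kidney (1084 ± 513 RPM), heart (817 ± 270 RPM), liver (448 ± 162 RPM) and muscle (308 ± 140 RPM) followed, each overlapping with the next, and spleen overlapped with lung only through that library. By the ratio of the highest to the lowest tissue mean, this was the flattest profile of the 9 more abundant miRNAs, with a mean of spleen 10.6 times that of muscle. The log2 fold change of spleen against the other 5 tissues was 1.67 ± 0.22 (adjusted p = 1.69e-06, edgeR), that of spleen against lung 1.13 ± 0.33 (adjusted p = 0.0211), and that of lung against the 4 others 0.68 ± 0.24 (adjusted p = 0.0525), the last pair not being called. The counts came almost wholly from the 3p arm, the 5p arm making up at most 2.84% of both, in the spleen of high-altitude replicate 1. chi-miR-342-5p was called in spleen against the other tissues (adjusted p = 0.00468) and against lung (adjusted p = 0.024, both edgeR) from spleen counts of 202, 20 and 41 at high altitude against 83, 0 and 0 at low altitude. The log2 fold changes were 3.19 and 5.24. With the goat as a block they were 2.93 and 5.04, at adjusted p of 0.191 and 0.133 (edgeR). Without the spleen of high-altitude replicate 1 they were 2.09 and 4.01, at adjusted p of 0.0953 and 0.103 (edgeR). Without low-altitude replicate 1 both adjusted p were 1, and of the 6 fits that left out a replicate only that without high-altitude replicate 2 kept the difference to lung.

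chi-miR-155-5p, which rises when lymphocytes and macrophages are activated, was counted 18092, 6490 and 12165 times in the high-altitude spleens and 6813, 4774 and 4307 times in the low-altitude ones. In RPM the first of these was 2474 and the others lay between 479 and 1105, all above the highest lung. The mean was 991 ± 759 RPM in spleen (n = 6), 694 ± 244 RPM without that library (n = 5), and 295 ± 96.9 RPM in lung, followed by liver (122.1 ± 45.4 RPM), kidney (118 ± 46.2 RPM), heart (51.5 ± 24.02 RPM) and muscle (30.1 ± 8.02 RPM). Lung stood clear of liver as well, while liver and kidney did not differ beyond their spread. Spleen against the other 5 tissues gave a log2 fold change of 2.87 ± 0.23 (adjusted p = 1.16e-10, edgeR) and spleen against lung 1.67 ± 0.36 (adjusted p = 0.00167). Without the spleen of high-altitude replicate 1 the latter was 1.11, and with the filterByExpr filter on low counts 1.38, both below the least fold change. Lung against the 4 other tissues was at the limit, with 1.503 ± 0.25 (adjusted p = 3.83e-05), and it was 1.46 with the goat as a block and went as low as 1.29 when replicates were left out.

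chi-miR-146a-3p ran from 6199 to 20847 RPM in the 6 spleens with a median of 10509, and from 4634 to 7257 RPM in the 6 lungs with a median of 5574. Spleen and lung overlapped, and liver (3346 ± 1376 RPM), kidney (1138 ± 528 RPM), heart (1057 ± 420 RPM) and muscle (246 ± 169 RPM) followed. The log2 fold change was 2.44 ± 0.34 for spleen against the other 5 tissues (adjusted p = 4.43e-06, edgeR), 1.82 ± 0.37 for lung against the 4 others (adjusted p = 0.000458) and 0.98 ± 0.52 for spleen against lung (adjusted p = 0.285). For miR-146a, as for all miRNAs here, the arm name was taken as listed, since no mature sequence was used to check it.

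chi-miR-146b-5p was the only one of the 15 called lower in spleen than in lung. It had 24511, 12323 and 48165 counts in the high-altitude lungs and 40450, 30099 and 14720 in the low-altitude lungs. In spleen it had 3949, 3003 and 4513 counts at high altitude against 3281, 12312 and 9332 at low altitude. In RPM the lungs ran from 1192 to 4721 and the spleens from 312 to 1417, so that the ranges overlapped, with means of 2808 ± 1419 RPM and 673 ± 454 RPM. Liver (518 ± 293 RPM), heart (161 ± 102 RPM), kidney (148 ± 83.3 RPM) and muscle (27.9 ± 15.6 RPM) followed. Lung exceeded the 4 other tissues by a log2 fold change of 3.82 ± 0.46 (adjusted p = 1.79e-07, edgeR), and spleen was below lung at -2.27 ± 0.71 (adjusted p = 0.0362). The spleen to lung difference was no longer called without high-altitude replicate 3 (-1.63, adjusted p = 0.261) or without low-altitude replicate 1 (-1.75, 0.216), 2 (-2.57, 0.0782) or 3 (-2.41, 0.0979), the last 2 values being no smaller in size than that of the full fit. The second entry of miR-146b was read in lung alone above 4 counts for its 3p arm, with 216, 0 and 0 counts at high altitude against 0, 0 and 430 at low altitude, so its call in lung (adjusted p = 0.000914, edgeR) rests on 2 libraries, and the adjusted p was 1 without the goat of either.

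Among the myeloid forms, chi-miR-223-3p was counted 3181, 15105 and 2700 times in the high-altitude lungs and 829, 661 and 1639 times in the low-altitude ones. In spleen it had 3466, 5476 and 9513 counts at high altitude against 3260, 0 and 0 at low altitude, and in liver 2244, 3827 and 1610 against 595, 0 and 0. Low-altitude goats 2 and 3 were thus listed at 0 in spleen and liver although both had counts in lung, heart and muscle. The means were 394 ± 533 RPM in lung, 371 ± 340 RPM in spleen and 158 ± 168 RPM in liver (SD, n = 6), whose ranges overlapped (557 ± 233 RPM and 236 ± 149 RPM over the 4 spleens and 4 livers with counts), and 25.3 ± 21.2 RPM in heart, 11.9 ± 9.08 RPM in muscle and 11.3 ± 11.4 RPM in kidney. Lung led in the mean only through high-altitude replicate 2, without which it had 180 ± 115 RPM (n = 5), and the medians were 213 RPM in lung and 392.2 RPM in spleen. As a log2 fold change this was 2.92 ± 0.85 for lung against the 4 other tissues (adjusted p = 0.0138, edgeR), 2.42 ± 0.82 for spleen against the other 5 (adjusted p = 0.035) and 0.08 ± 1.23 for spleen against lung (adjusted p = 1). The lung call was not kept without high-altitude replicate 2 (2.71, adjusted p = 0.0822) or 3 (2.93, 0.0576), at about the same fold change. The spleen call was lost with the goat as a block (1.99, adjusted p = 0.172), without the spleen of high-altitude replicate 1 (2.49, 0.0547), and without high-altitude replicate 1 (2.41, 0.125), 2 (2.58, 0.0771) or 3 (2.28, 0.149). Without low-altitude replicate 1, both low-altitude spleens left are at 0, and the fitted value, which is no bound, turned to -2.81 (adjusted p = 1) for spleen against the other tissues and to -6.29 (adjusted p = 0.000154) for spleen against lung.

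The minor arm chi-miR-223-5p was counted 317, 1197 and 169 times in the high-altitude lungs and 248, 300 and 608 times in the low-altitude ones, or 46.4 ± 37.0 RPM. Spleen had 754, 131 and 198 counts at high altitude against 204, 0 and 0 at low altitude. It was called in lung against the 4 other tissues, with a log2 fold change of 4.07 ± 0.87 (adjusted p = 0.000853, edgeR), and not in spleen against the other 5, at 2.09 ± 0.86 (adjusted p = 0.0926). The spleen contrast was called by DESeq2, at 2.15 (adjusted p = 0.0486), and with library totals in place of TMM, at 2.59 (adjusted p = 0.0215), and it was 1.23 (adjusted p = 0.656) without the spleen of high-altitude replicate 1. The 5p share of miR-223 was 9.06%, 7.34% and 5.89% in the high-altitude lungs against 23.03%, 31.2% and 27.1% in the low-altitude lungs, without overlap. In the 4 spleens with at least 100 counts over both arms it was 17.9%, 2.34% and 2.04% at high altitude and 5.89% in low-altitude replicate 1. In the lungs the low-altitude counts of the 5p arm were within the high-altitude range, whereas those of the 3p arm were all below it.

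The other arms were scarce. miR-150, miR-155 and the entry chi-miR-146b gave nearly only the 5p arm, with lowest shares of 99.6%, 99.0% and 98.8% over the libraries with at least 100 counts. The second entry of miR-146b, not part of that share, had 42 counts of its 5p arm against 654 of its 3p arm in all. chi-miR-150-3p had at most 16 counts and chi-miR-155-3p at most 43, and both were called in spleen against the other tissues (adjusted p = 0.00105 and 0.000265, edgeR). chi-miR-150-3p (adjusted p = 0.00303, or 0.0785 without low-altitude replicate 1) and chi-miR-146b-3p, with at most 42 counts (adjusted p = 0.00204), were called in lung.

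Between altitudes, 0 of the 15 leukocyte miRNAs passed both thresholds of the edgeR quasi-likelihood test in any of the 6 tissues. Over all miRNAs the share called was 0.144% in spleen, 0% in lung, liver, kidney and heart, and 0.0719% in muscle. These were chi-miR-99a-5p and chi-miR-100-5p in spleen and chi-miR-409-5p in muscle, all lower at high altitude, and are named as the only calls after their values were seen. Their log2 fold changes were -4.21, -3.56 and -6.28. In the edgeR fit with the replicate number as a block, the adjusted p were 0.199, 0.266 and 0.381, at log2 fold changes of -4.20, -3.61 and -6.34. At an unadjusted p under 0.05, 9 of the 90 pairs of leukocyte miRNA and tissue passed, and between 4.24% (liver) and 6.4% (heart) of all miRNAs did. The 9 were chi-miR-223-3p in lung, heart and muscle, chi-miR-150-5p in lung, liver and kidney, chi-miR-342-3p in spleen and heart, and chi-miR-342-5p in liver, which had 0, 32 and 18 counts at high altitude and was at 0 in the low-altitude livers. By DESeq2, 5 of the 90 pairs were called, with 22 to 36 calls per tissue among all miRNAs. A p above the threshold with 3 goats in each population does not show that levels were equal. The 5 pairs belong to chi-miR-150-5p and chi-miR-223-3p and are given with their values.

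In each of the 6 tissues, all 3 high-altitude libraries of chi-miR-223-3p were above all 3 low-altitude ones. In spleen they had 474, 580 and 864 RPM against 310, 0 and 0 RPM, and in lung 330, 1461 and 265 RPM against 85.6, 60.9 and 161 RPM. In liver they had 285, 416 and 176 RPM against 68.5, 0 and 0 RPM. The size of the gap in spleen and liver hangs on these 0 counts, whose nature is not known. Where the low-altitude library had counts, the gap was small in spleen, the lowest high-altitude value being 1.53 times the highest low-altitude one, and 2.57 times in liver. The 3 remaining tissues had low levels and the same order. Kidney had 11.3, 31.4 and 15.3 RPM against 2.53, 6.92 and 0 RPM, heart 28.7, 66.5 and 18.6 RPM against 15.7, 9.83 and 12.2 RPM, and muscle 9.86, 28.8 and 14.9 RPM against 6.54, 3.55 and 7.85 RPM. Of the 18 low-altitude libraries 5 were at 0, and of the 18 high-altitude libraries 0.

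The log2 fold change of chi-miR-223-3p, high over low altitude, was 2.68 ± 0.62 in lung (unadjusted p = 0.00366, adjusted p = 0.778, edgeR), 1.64 ± 0.51 in muscle (0.0162 and 0.675) and 1.44 ± 0.59 in heart (0.0479 and 0.748). The tissues with counts of 0 had wide errors, at 2.66 ± 2.64 in spleen, 3.61 ± 2.48 in liver and 2.41 ± 1.46 in kidney. DESeq2 called lung (adjusted p = 0.0056) and muscle (adjusted p = 0.04996), and gave no adjusted p in spleen. Without low-altitude replicate 1, the spleen comparison was called by edgeR (adjusted p = 0.0254), since the 2 libraries left in that population are at 0, so that no fold is given. In lung, high-altitude replicate 2 was far above the other 5 libraries, and the fold change was 1.99 to 3.19 as replicates were left out. Averaged over the 6 tissues of a goat, log2(RPM + 1) was 6.23, 7.40 and 6.26 in the high-altitude goats and 4.94, 2.43 and 2.37 in the low-altitude goats. These averages are a description, since this miRNA was picked out for its lack of overlap. The 6 tissues are not independent repeats, since the same goats are compared in each.

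Libraries without overlap in the same direction were counted for all miRNAs, also after the values were seen. High above low altitude in all 6 tissues held for 0.144% of all miRNAs, namely chi-miR-223-3p and chi-miR-504-5p, and the reverse for chi-miR-143-5p. By tissue, the leukocyte miRNAs without overlap and higher at high altitude numbered 3 of 15 in spleen (all miRNAs 4.46%), 2 in lung (2.3%), 2 in liver (2.37%), 2 in kidney (1.73%), 2 in heart (8.05%) and 1 in muscle (3.24%). Those lower at high altitude numbered 1 in spleen (5.54%), 0 in lung (5.97%), 0 in liver (5.97%), 1 in kidney (3.67%), 1 in heart (4.03%) and 0 in muscle (5.18%). A miRNA at 0 in a library of each population cannot be without overlap in that tissue. The shares over all miRNAs include such entries and are not matched to the 15 by level.

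**Figure D2:**
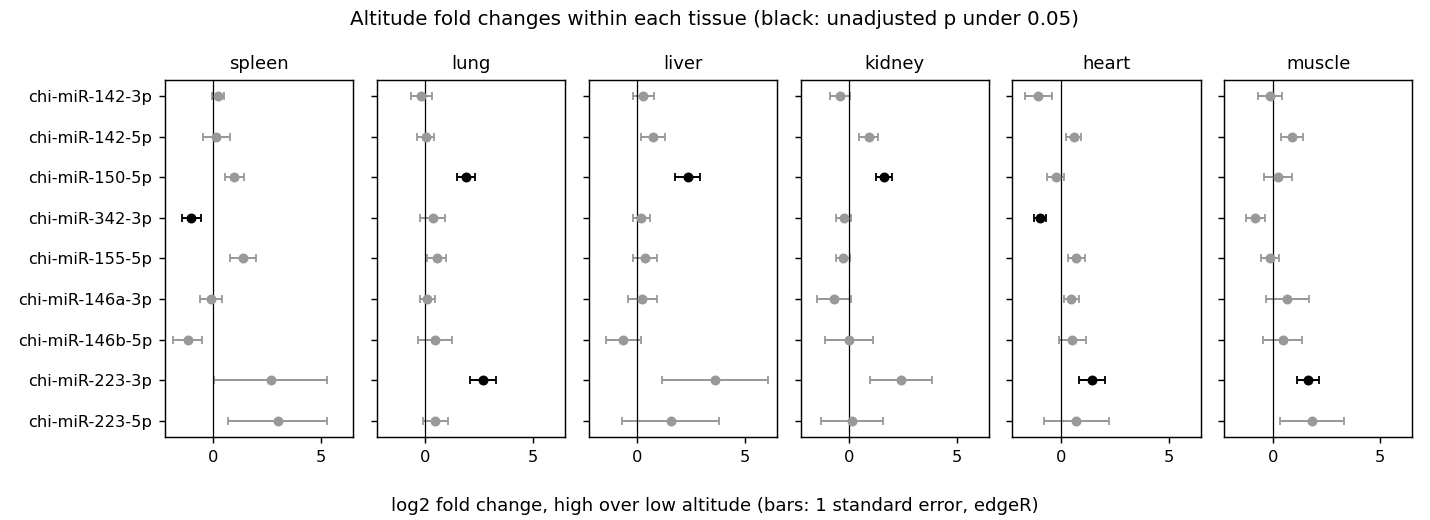
Log2 fold change, high over low altitude, of the 9 leukocyte miRNAs of at least 10 RPM in each tissue, with bars of 1 standard error from the edgeR fit of 3 against 3 goats. Black points have an unadjusted p under 0.05, and 0 of the points pass an adjusted p of 0.05; chi-miR-150-5p lies at 1.90, 2.34 and 1.62 in lung, liver and kidney, and chi-miR-223-3p above 0 in all 6 tissues.

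chi-miR-150-5p, the lymphocyte miRNA, separated the populations in lung, liver and kidney. In lung it had 944, 1863 and 838 RPM at high altitude against 461, 338 and 233 RPM at low altitude, and in liver 418, 553 and 118 RPM against 80.9, 84.0 and 51.8 RPM. In kidney the values were 112, 222 and 132.03 RPM against 21.1, 79.4 and 68.4 RPM. In these tissues each high-altitude library was above each low-altitude one, but in spleen (3450, 6952 and 5244 against 4308, 1690 and 1729 RPM), heart (244, 248 and 216 against 339, 145.5 and 252 RPM) and muscle (175, 1360 and 312 against 313, 445 and 729 RPM) the populations overlapped. The log2 fold change was 1.90 ± 0.41 in lung (unadjusted p = 0.00257, adjusted p = 0.757, edgeR), 2.34 ± 0.57 in liver (0.00487 and 0.424) and 1.62 ± 0.39 in kidney (0.0049 and 0.681). It was 0.96 ± 0.44 in spleen, -0.24 ± 0.40 in heart and 0.23 ± 0.65 in muscle. DESeq2 called it in lung (adjusted p = 0.000414), liver (0.00506) and kidney (0.00189), and edgeR with a single fit over all 36 libraries in liver (0.0238).

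Whether the altitude difference itself differed between tissues was tested in the edgeR fit over 12 groups. Of the leukocyte miRNAs 0 of 15 had an adjusted p under 0.05, against 0.216% of all miRNAs, which were chi-miR-542-3p, chi-miR-409-5p and chi-miR-376b-3p. The lowest p was that of chi-miR-150-5p (unadjusted p = 0.00245, adjusted p = 0.274), followed by chi-miR-342-5p (0.0204 and 0.54) and chi-miR-342-3p (0.0476 and 0.719), so that 3 of 15 had an unadjusted p under 0.05, as did 6.69% of all miRNAs. This fit has no term for the goat, though each goat gave all tissues. With the goat as a block, added later, the calls were 0 of 15 and 2 of all 1391, and 2 of 15 had an unadjusted p under 0.05, against 6.61% of all, with chi-miR-150-5p again the lowest (unadjusted p = 0.00123, adjusted p = 0.168). DESeq2 was not run for the interaction. chi-miR-223-3p had an adjusted p of 1 in this edgeR test.

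chi-miR-342-3p was lower at high altitude in spleen, with 945, 2774 and 3064 RPM against 5260, 3654 and 3898 RPM, and in heart, with 769, 509 and 500 RPM against 979, 1001 and 1143 RPM. The populations did not overlap in either tissue, and they did in the 4 others. Its log2 fold change was -1.03 ± 0.43 in spleen (unadjusted p = 0.0497, adjusted p = 0.729, edgeR) and -0.98 ± 0.28 in heart (0.0116 and 0.484). As each replicate was left out in turn, the spleen value ran from -1.28 to -0.71, the latter without high-altitude replicate 1.

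For miR-142 no tissue had an unadjusted p under 0.05 between the populations. chi-miR-142-3p had 4036, 4883 and 4249 RPM in the high-altitude spleens and 3506, 3859 and 3491 RPM in the low-altitude spleens, which did not overlap, at a log2 fold change of 0.20 ± 0.29 (adjusted p = 1, edgeR). In lung it was 204, 481 and 435 RPM against 602, 393 and 514 RPM, overlapping, at -0.19 ± 0.50. chi-miR-142-5p gave 0.14 ± 0.63 in spleen and 0.01 ± 0.39 in lung (both adjusted p = 1), and the sign of the lung value turned with library totals in place of TMM, at -0.19. In the other tissues chi-miR-142-3p had -1.07 ± 0.63 in heart, -0.43 ± 0.46 in kidney, -0.14 ± 0.57 in muscle and 0.29 ± 0.48 in liver. For chi-miR-142-5p these were 0.58 ± 0.35 in heart, 0.91 ± 0.44 in kidney, 0.89 ± 0.51 in muscle and 0.72 ± 0.56 in liver, so that the arms had opposite signs in heart, kidney and muscle.

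The miRNAs of activation did not pass either. chi-miR-155-5p was without overlap in spleen (2474, 687 and 1105 against 649, 549 and 479 RPM) and in heart (49.1, 98.2 and 52.2 against 32.3, 40.0 and 37.5 RPM), at log2 fold changes of 1.38 ± 0.60 (unadjusted p = 0.0583, adjusted p = 0.729, edgeR) and 0.71 ± 0.40 (0.12 and 0.777). chi-miR-146a-3p lay between -0.71 ± 0.79 in kidney and 0.67 ± 0.98 in muscle. chi-miR-146b-5p lay between -1.21 ± 0.66 in spleen, where 540, 318 and 410 RPM at high altitude stood against 312, 1417 and 1038 RPM, and 0.52 ± 0.63 in heart. The populations overlapped in all 6 tissues for both miR-146 forms. With another scaling the sign of chi-miR-146a-3p turned in spleen and lung and that of chi-miR-146b-5p in kidney, all at values near 0. The value of chi-miR-342-3p in lung went from 0.34 to -0.035 with library totals in place of TMM.

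Sums of miRNAs of other cell types were compared between the populations without a test. Of 42 pairs of marker list and tissue, 12 were without overlap between altitudes, in either direction. Among single miRNAs, by tissue, 1.73% (kidney) to 8.05% (heart) were without overlap and higher at high altitude. Those lower made up 3.67% (kidney) to 5.97% (lung and liver). No such share was computed for sums, and the lists share libraries. Higher at high altitude were the hepatocyte list in lung (74.1 ± 55.1 against 9.58 ± 3.68 RPM, SD, n = 3), the striated muscle list in kidney (1740 ± 456 against 448.6 ± 229.6 RPM) and the ciliated list in spleen (42.4 ± 5.01 against 18.5 ± 1.72 RPM) and heart. The epithelial list was higher in heart and muscle, and the striated muscle list was lower in muscle. The other 5 pairs belong to the smooth muscle and erythroid lists. The smooth muscle list (8 mature forms of miR-143 and miR-145, led by chi-miR-143-3p, 2 to 4 of them at 0 in each library) summed to 357292, 402152 and 369333 RPM in the high-altitude spleens against 415577, 568728 and 454538 RPM in the low-altitude spleens. In lung it summed to 150251, 154842 and 253929 RPM against 291233, 302558 and 265108 RPM, so in both organs it was lower at high altitude without overlap and took a large part of the RPM base. In heart and muscle it was higher at high altitude without overlap, at 162415 ± 40318 against 68324 ± 8559 RPM and 43277 ± 17567 against 20517 ± 2510 RPM (SD, n = 3). The lung with the highest chi-miR-223-3p, of high-altitude replicate 2, also had the most of the endothelial miR-126, 38674 RPM against 7543 to 26480 RPM in the other lungs. The part of these lists in the differences of the leukocyte miRNAs was not tested.

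For blood in the tissue the erythroid list was read, with 2 of 4 names listed and conserve-chi-miR-486-5p the most abundant of 4 mature forms. It summed to 18759, 0 and 5055 RPM in the high-altitude lungs and to 6350, 5538 and 7366 RPM in the low-altitude lungs, and to 11989, 837 and 998 RPM against 4437, 4099 and 7646 RPM in spleen. conserve-chi-miR-486-5p itself was listed at 0 in the spleens of high-altitude replicates 2 and 3 and in the lung and kidney of replicate 2, and at 2.03 RPM in the liver of replicate 1. These sums are thus no measure of how much blood a library held. In liver the list was lower at high altitude without overlap, at 343, 6388 and 4285 RPM against 9104, 9959 and 8658 RPM. In kidney, heart and muscle the populations overlapped in this list. miR-451, its defining miRNA, has no value here, and the part of blood in the differences of the leukocyte miRNAs was not tested.

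Other miRNAs linked with leukocytes were taken from a list of 18 names, of which 15 were found as 29 mature miRNAs. Their sum was 71623 ± 11334 RPM in spleen, 56171 ± 14516 RPM in lung and 16562 ± 3746 RPM in muscle (SD, n = 6), with conserve-chi-miR-181a-5p the most abundant. In spleen against the other 5 tissues 5 of 29 were higher and 2 lower by edgeR, against 10.8% and 4.1% of all miRNAs, and in spleen against lung 1 was higher and 3 lower, against 4.17% and 3.95%. Those higher in the first contrast were chi-miR-21-5p (log2 fold change 1.83 ± 0.22, adjusted p = 2.17e-07), chi-miR-21-3p, chi-miR-181b-5p, chi-miR-181b-3p and chi-miR-19a-3p, and those lower were both arms of miR-24, a miRNA of many cell types. In lung against the 4 others 2 of 29 were higher, against 8.77% of all miRNAs, namely both arms of miR-147, which macrophages induce on activation, chi-miR-147-3p at 4.06 ± 0.27 (adjusted p = 6.48e-13, edgeR). Between altitudes 0 of the 29 were called by edgeR in any tissue, while 15 of the 174 pairs of miRNA and tissue (8.62%) had an unadjusted p under 0.05, against 5.32% over all miRNAs, and DESeq2 called 3 (1.72%), against 2.14%.

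The miRNAs most like the 3 followed forms were sought among 284 others of at least 10 RPM, by Pearson r of log2(RPM + 1) over 36 libraries. For chi-miR-142-3p they were chi-miR-93-5p (r = 0.906), chi-miR-106b-5p (0.899), chi-miR-330-5p (0.896), chi-miR-21-5p (0.865) and chi-miR-363-3p (0.839). For chi-miR-142-5p they were chi-miR-93-5p (0.892), chi-miR-143-3p (0.888), chi-miR-33a-5p (0.882), chi-miR-106b-3p (0.875) and chi-miR-330-5p (0.854). All but chi-miR-33a-5p, which was highest in liver, had their highest mean in spleen. The values for chi-miR-223-3p were lower, with chi-miR-3431-3p (0.668), chi-miR-191-3p (0.657), chi-miR-374a-5p (0.605), chi-miR-28-3p (0.604) and chi-miR-296-3p (0.567). With the tissue means removed, r in the same orders was 0.307, 0.412, 0.241, 0.445 and 0.127 for chi-miR-142-3p. For chi-miR-142-5p it was 0.087, 0.543, 0.735, 0.555 and 0.063, and for chi-miR-223-3p 0.630, 0.738, 0.500, 0.477 and 0.720. The lower rank of chi-miR-223-3p thus held only with tissue differences included. Within the set, chi-miR-155-5p and chi-miR-142-3p were the most alike, at r = 0.918. After the tissue means were removed, the highest values were those of both arms of miR-223 (r = 0.788), of chi-miR-146b-5p and chi-miR-146a-3p (0.692) and of chi-miR-223-3p and chi-miR-150-5p (0.671), and the lowest that of chi-miR-150-5p and chi-miR-146b-5p (-0.641). Removing tissue means leaves differences between the populations in these values. Averaged over the tissues of a goat, chi-miR-223-3p and chi-miR-150-5p were each higher in every high-altitude goat than in any low-altitude one. All values of r are descriptions over libraries that share tissues and goats.

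In the RefSeq annotation of ARS1.2, 6 of the 7 precursor names were matched by symbol. MIR342 overlaps EVL, which is itself expressed in blood cells, and the 5 others overlap no gene of the table. Positions are not given, since the authors mapped to another assembly, ARS1.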

How the data were processed

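Reads were mapped by the authors to the assembly ARS1 (Bowtie, 0 mismatches), and miRDeep2 with miRBase release 21 gave the mature miRNAs, which needed 3 or more reads in some library to be kept. The deposited unit is the raw count of a mature miRNA in a library.

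The 15 leukocyte miRNAs and all marker lists were chosen with earlier results of these data known. RPM was computed from the total count over all 1391 miRNAs. Tests were fitted on all 1391 with edgeR 4.0.16 in R 4.3.3 (TMM, glmQLFit, glmQLFTest, Benjamini-Hochberg adjustment), within each tissue for altitude and over 12 groups for tissues and the interaction. Standard errors were the absolute log2 fold change over the square root of F. The replicate number was taken as the goat, so tissues of a goat are paired and populations are not. Named miRNAs were those of the set, the smallest p per tissue and the 5 most like. Alternatives were DESeq2 1.42.0, RLE, library totals, filterByExpr, adjusted p alone, a block, a single fit and leaving out replicates. The fits were also run on simulated counts, from which no result is used here. With the data known, 6 further calculations were added. Python 3.11.15 was used for the rest. Per-sample mRNA data were not used here.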

Additional observations from a re-analysis of the deposited data

Results flagged for a closer look

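Each of the 9 leukocyte miRNAs of at least 10 RPM was searched in each tissue for a value far from the other 5, which gave 54 groups of 6 libraries. The nominal rate of this search is about 1 in 20 groups, which was not checked for RPM pooled over both populations. There were 9 values far from the others, in 6 libraries, and 5 of them belong to high-altitude replicate 2. chi-miR-223-3p had 1461 RPM in its lung against 60.9 to 330 RPM in the other lungs, and 66.5 RPM in its heart against 9.83 to 28.7 RPM. In the same heart chi-miR-155-5p had 98.2 RPM against 32.3 to 52.2 RPM and chi-miR-223-5p had 4.52 RPM against at most 1.31 RPM, and in the liver of this goat chi-miR-342-3p had 760 RPM against 286 to 434 RPM. The spleen of high-altitude replicate 1 had 2474 RPM of chi-miR-155-5p against 479 to 1105 RPM and 103 RPM of chi-miR-223-5p against at most 19.4 RPM. In the muscle of high-altitude replicate 3, chi-miR-142-5p had 1270 RPM against 415 to 611 RPM. In the kidney of low-altitude replicate 3, chi-miR-223-5p was listed at 0 against 0.842 to 1.07 RPM in the other kidneys, which stand for 9 to 12 counts.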

How the results depend on the processing

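The 21 fold changes followed kept their direction in 253 of 273 alternatives, and the causes of the other 20 were not tested. In the altitude comparison DESeq2 called 2 leukocyte miRNAs in lung and 1 each in liver, kidney and muscle, and among all miRNAs 36 in spleen, 22 in lung, 31 in liver, 24 in kidney, 36 in heart and 30 in muscle. With filterByExpr, which tests fewer miRNAs, all calls were 9 in spleen, 6 in liver and 2 in heart, and 5 in the interaction. Library totals gave 1 in spleen and 2 in liver. A single fit over 36 libraries gave 5 in spleen, 4 in lung, 7 in liver (1 a leukocyte miRNA), 2 in kidney, 2 in heart and 34 in muscle. As replicates were left out, leukocyte miRNAs called numbered 0 to 1 in spleen, and all calls 0 to 4 in spleen, 0 to 1 in lung, 0 to 6 in heart and 0 to 4 in muscle, and 71 to 94 for spleen against lung, or 99 without the spleen of high-altitude replicate 1 alone.

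The replicate number as a block between populations left 0 calls in spleen and 0 in muscle, and 0 leukocyte miRNAs in any tissue. Goats of the same number are different animals. Of 18 same-numbered pairs, 8 had a correlation of deviations over 0.1 (range -0.50 to 0.40), among them all 3 in spleen (0.127 to 0.259), which held in no other tissue. With the block chi-miR-142-5p went to -0.20 in spleen and -0.045 in lung. Beyond the calls given with the results, the goat as a block changed none of the leukocyte calls between tissues or in the interaction, where it left 2 calls among all miRNAs.

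Near 0, the log2 fold change between altitudes of chi-miR-142-5p ran from -0.20 to 0.61 in spleen and from -0.16 to 0.19 in lung as replicates were left out, and in lung it was -0.19 with library totals and -0.024 with filterByExpr. That of chi-miR-142-3p in lung ran from -0.61 to 0.12. For chi-miR-223-3p, leaving out replicates gave -2.81 to 2.62 for spleen against the other tissues and -6.29 to 0.54 for spleen against lung. The latter was -0.12 by DESeq2, -0.12 with RLE, -0.043 with library totals, -0.22 with filterByExpr, -0.39 with the block and -0.025 without the spleen of high-altitude replicate 1, which was left out after seeing the data.

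Levels scaled by TMM were 3038 RPM for chi-miR-142-3p in spleen and 6532 RPM for chi-miR-142-5p in lung. With RPM not on a log scale, 2, 1 and 2 of the 5 most like miRNAs of chi-miR-142-3p, chi-miR-142-5p and chi-miR-223-3p were shared. Depth limits the scarce arms, since 3 counts are up to 0.422 RPM.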
